A study of Mus musculus with 6 samples.

Results

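The 10 genes described here are standard transcriptional targets of the tumour suppressor p53: Cdkn1a, Gadd45a, Ccng1, Mdm2, Bax, Bbc3, Pmaip1, Phlda3, Trp53inp1 and Sesn2. They were taken by gene name from the deposited gene table, in which each name was found on 1 row, so that they are 10 of 41386 genes. The data were bulk RNA-seq read counts of the mouse hippocampus, and the question was how expression differed after cerebral ischemia and reperfusion. The I/R group had 3 libraries from C57BL/6 mice (C57BL/6J per the methods) of 56 days, in which the middle cerebral artery was blocked by a filament for 1.5 h and then reopened for 24 h. The sham group had 3 libraries from mice of the same strain and age, which were operated on in the same way without insertion of the filament. Per the methods of the study, all mice were male, the hippocampi were of the operated side, and each library pooled 3 hippocampi. The spread between libraries is therefore a spread between pools, and p-values measure only that spread.

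p53 is a transcription factor that is held low by the ubiquitin ligase MDM2 and is stabilised by DNA damage, oxidative stress and other injury. It then binds DNA as a tetramer and switches on genes that halt the cell cycle, assist DNA repair, restrain growth signalling or open the mitochondrial route of apoptosis. It also switches on Mdm2, which closes a negative feedback loop. In neurons, which do not divide, p53 is known mainly for the apoptotic branch of this programme, and several of its targets can also be induced by other stress factors such as ATF4.

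A p53 binding site is made of a pair of copies of a 10-base consensus unit (a decamer), and the DNA before the start sites of the genes was searched for it. RefSeq promoter windows on GRCm38.p6, each of 300 bases with 250 before the start site, were given for 8 of the 10 genes, which had 11 windows in all. An exact decamer was found in 5 of the 11 windows, against 8.36% of all 32851 windows. A full site, 2 decamers with 0 to 3 bases between them and at most 2 mismatches, was found in 3 of the 11 windows, against 1.35% of all windows. These 3 windows are shown because they hold the letters that p53 is known to recognise. They are the 250 bases before the start site, 5′ to 3′ on the strand of the gene, with the full site in capitals. The first belongs to Cdkn1a (chr17:29090729-29090978, plus strand), the next to Ccng1 (chr11:40755287-40755536, minus strand) and the last to Bax (chr7:45466899-45467148, minus strand).
Cdkn1a: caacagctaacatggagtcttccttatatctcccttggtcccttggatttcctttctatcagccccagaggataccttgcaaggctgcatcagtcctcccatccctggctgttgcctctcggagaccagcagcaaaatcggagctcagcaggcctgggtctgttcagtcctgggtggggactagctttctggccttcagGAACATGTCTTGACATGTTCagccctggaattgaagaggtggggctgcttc
Ccng1: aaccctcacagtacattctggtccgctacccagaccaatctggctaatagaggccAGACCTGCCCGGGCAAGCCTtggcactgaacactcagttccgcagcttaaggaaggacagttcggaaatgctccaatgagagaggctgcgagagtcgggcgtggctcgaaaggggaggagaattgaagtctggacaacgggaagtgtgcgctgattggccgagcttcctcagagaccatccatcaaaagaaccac
Bax: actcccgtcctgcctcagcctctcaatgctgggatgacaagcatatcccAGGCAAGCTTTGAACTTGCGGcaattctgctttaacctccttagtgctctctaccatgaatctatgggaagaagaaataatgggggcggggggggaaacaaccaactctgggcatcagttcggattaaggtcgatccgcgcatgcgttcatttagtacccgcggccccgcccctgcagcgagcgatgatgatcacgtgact

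In Cdkn1a the full site lay 51 to 32 bases before the first of 2 annotated start sites and had 1 mismatch. Another exact decamer, GGACTAGCTT, lay 73 to 64 bases before the same start. In Ccng1 the full site lay 195 to 176 bases before the start with 1 mismatch, and in Bax it lay 201 to 181 bases before the start with 2 mismatches and 1 base between the decamers. Single exact decamers were found in Mdm2, GAACTTGCCT at 186 to 177 bases before the start, and in Gadd45a, GGGCTAGCCC at 40 to 31 bases before the start. No such match was found in the windows of Bbc3, Sesn2 and Phlda3 or in the other window of Cdkn1a, which says only that these letters are not in these 300 bases. The motifs of AP-1 (TGANTCA), CRE (TGACGTCA) and C/EBP-ATF composite sites (TGATGNAA), searched on both strands, were found in 0 of the 11 windows, against 7.81%, 1.79% and 3.97% of all windows. The SP1 box GGGCGG was found in 9 of the 11, against 35.7% of all windows. A sequence match describes the DNA and does not show that p53 was bound there.

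**Figure D1:**
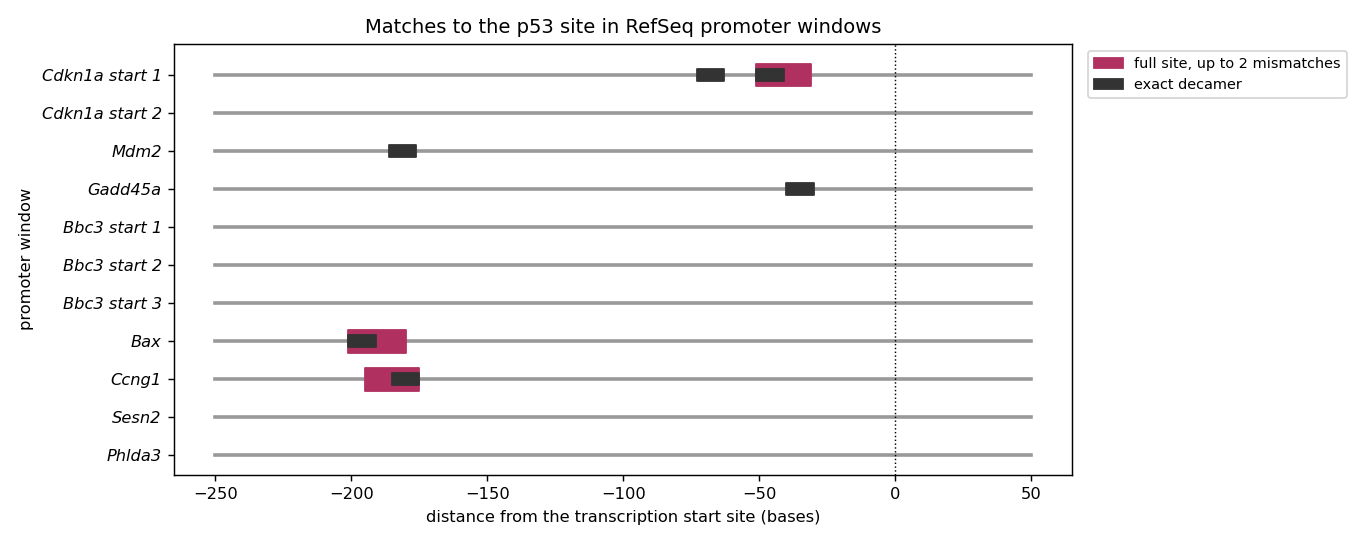
Positions of p53 decamers and full sites in the 11 promoter windows of 8 genes, with the distance from the transcription start site in bases on the x axis. Full sites (wide red boxes) are seen only in Cdkn1a, Bax and Ccng1, and single exact decamers (dark boxes) also in Mdm2 and Gadd45a.

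The libraries held 37493042 to 44788547 counted reads, and the 10 genes had between 50 and 18478 reads in each. Levels are given as CPM, the count scaled to a common library size after TMM correction. Reads of Prox1, Wfs1 and Slc17a7, neuronal genes expressed in the hippocampus, were present in all 6 libraries. These genes were called lower in I/R, with log2 fold changes of -0.77, -0.97 and -1.37. In the test, edgeR's quasi-likelihood F-test with Benjamini-Hochberg adjustment over 18569 genes, a gene was called at an adjusted p under 0.05 with a fold change over 1.2. All 10 genes passed the filter on low counts, all 10 were called and all 10 were higher in I/R. Of all genes tested, 41.8% were called, 21.8% as higher and 19.9% as lower. Higher genes were 52.3% of these calls, and 75.8% with scaling by library size alone, under which the 10 genes were also all called higher. The median log2 fold change was 1.60 over the 10 genes and 0.03 over all genes tested. The 10 genes were chosen with earlier results of these data known, so these shares describe them and test nothing. A fold change over 2 was reached by 7 of the 10, against 10.2% of all genes tested, and the 3 below it were Mdm2, Bbc3 and Bax. With scaling by library size alone Mdm2 and Bax were also over 2, at log2 fold changes of 1.19 and 1.06. In all 10 the lowest I/R library was above the highest sham library, as was so for 29.3% of all genes tested. With 3 libraries against 3, an exact two-sided permutation test on 1 gene cannot go below 0.1, and it gave 0.1 for each of the 10.

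**Figure D2:**
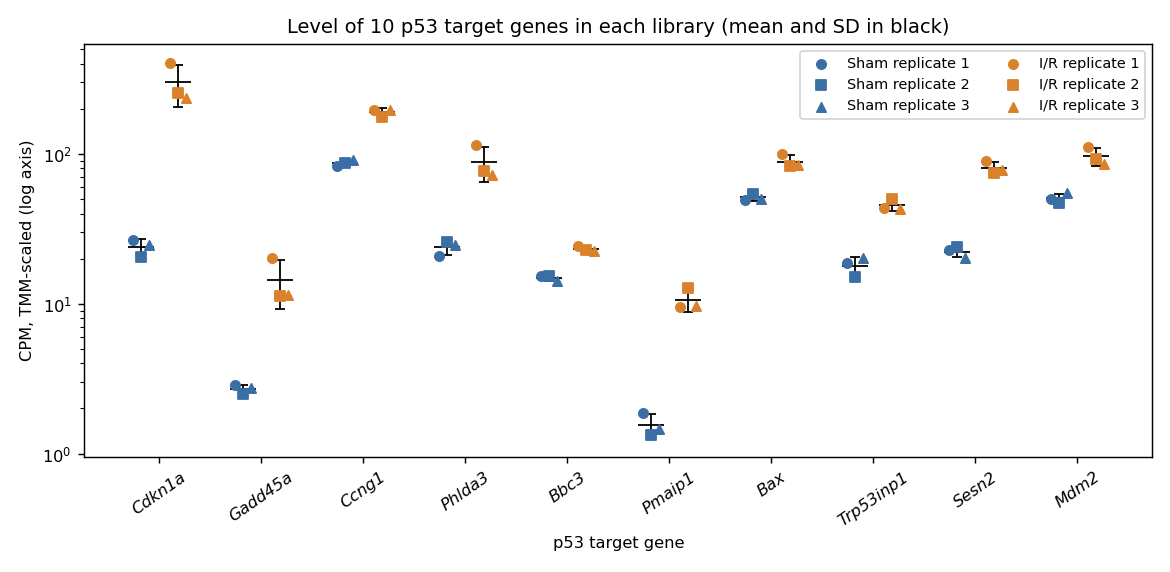
CPM of the 10 genes in each library on a log axis, with sham and I/R libraries as points and the group mean and SD in black. Every I/R point lies above every sham point of the same gene, with the widest gap in Cdkn1a.

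The genes that act on the cell cycle and on DNA repair spanned the range from the largest to a moderate change. Cdkn1a (MGP_BALBcJ_G0023420), which encodes the cyclin-dependent kinase inhibitor p21, lies on chromosome 17 at 27890913 to 27900571 of the BALB/cJ assembly used by the deposited table. Its level was 406, 256 and 237 CPM in I/R libraries 1, 2 and 3 and 26.5, 20.6 and 24.5 CPM in sham libraries 1, 2 and 3. The I/R libraries were thus all far above the sham libraries, and the lowest of them was 8.95-fold the highest sham library. The group means were 299.7 ± 92.5 and 23.9 ± 2.97 CPM (SD, n = 3 each), and Cdkn1a rose 12.5-fold (log2 fold change 3.65 ± 0.23 SE, edgeR adjusted p = 0.000212). Of its 50-base stretches 8.49% also occur in transcripts of other genes, so reads from these could be shared or lost. Only 1.46% of the genes tested had a higher log2 fold change.

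Gadd45a (MGP_BALBcJ_G0030824, chromosome 6, 64491479 to 64493840), a stress protein that binds the replication clamp PCNA and takes part in growth arrest and DNA repair, was at 20.3, 11.3 and 11.4 CPM in I/R and at 2.87, 2.51 and 2.73 CPM in sham, so that I/R library 1 stood above the other two I/R libraries and the sham libraries lay close together. The log2 fold change was 2.41 ± 0.26 (edgeR adjusted p = 0.000680). An antisense transcript, E230016M11Rik, overlaps Gadd45a and shares 15.6% of its 50-base stretches. It had 116, 77 and 89 reads in I/R and 47, 49 and 38 in sham. Whether reads were counted by strand is not given in the sources used here. Part of the Gadd45a count could thus belong to E230016M11Rik, or reads of the overlap could be lost, and how much was not measured.

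Ccng1 (MGP_BALBcJ_G0018105, chromosome 11, 38116906 to 38123665) encodes cyclin G1, which recruits a protein phosphatase to MDM2. Its level was 197.2, 175.8 and 197.4 CPM in I/R and 82.5, 87.5 and 90.6 CPM in sham. Both groups were tight, with coefficients of variation of 6.55% and 4.70%, and the log2 fold change of 1.13 had the smallest SE of the 10 genes, 0.09 (edgeR adjusted p = 0.000291).

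Of the genes of the apoptotic branch, the BH3-only gene Pmaip1 changed the most and Bbc3 the least. Pmaip1 (MGP_BALBcJ_G0024483, chromosome 18, 63918630 to 63925576) encodes NOXA, which binds and neutralises MCL1. Its level was 9.56, 12.7 and 9.65 CPM in I/R and 1.87, 1.33 and 1.45 CPM in sham. The sham values rest on 73, 54 and 50 reads, and the I/R values on 435, 507 and 386. Pmaip1 rose by a log2 fold change of 2.77 ± 0.21 (edgeR adjusted p = 0.000280).

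Bbc3 (MGP_BALBcJ_G0031686, chromosome 7, 13882806 to 13891431) encodes PUMA, a BH3-only protein that antagonises all anti-apoptotic BCL-2 proteins. Its level was 24.2, 22.7 and 22.6 CPM in I/R and 15.2, 15.2 and 14.2 CPM in sham. The change was the smallest of the 10 genes, with a log2 fold change of 0.64 ± 0.10 (edgeR adjusted p = 0.00211), but the libraries of each group were close enough that the lowest I/R library was still 1.48-fold the highest sham library. Bax (MGP_BALBcJ_G0032215, chromosome 7, 44837689 to 44842890), which forms pores in the outer mitochondrial membrane, was at 100.1, 82.7 and 84.2 CPM in I/R and at 49.4, 54.4 and 49.9 CPM in sham. It rose by a log2 fold change of 0.80 ± 0.10 (edgeR adjusted p = 0.00106). The annotated gene Gm45808 shares 8.51% of the 50-base stretches of Bax.

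Phlda3 (MGP_BALBcJ_G0016470, chromosome 1, 134590582 to 134593599) encodes a small pleckstrin-homology protein that keeps the survival kinase AKT off the membrane. It was at 115, 76.6 and 72.4 CPM in I/R and at 20.9, 25.98 and 24.7 CPM in sham, with I/R library 1 again the highest. Phlda3 rose by a log2 fold change of 1.88 ± 0.19 (edgeR adjusted p = 0.000547). Trp53inp1 (MGP_BALBcJ_G0028017, chromosome 4, 7594941 to 7615604), a nuclear cofactor of p53 that also takes part in autophagy, was at 43.3, 49.7 and 42.9 CPM in I/R and at 18.6, 15.2 and 20.2 CPM in sham. Here library 1 was not the highest of the I/R group. The log2 fold change was 1.33 ± 0.13 (edgeR adjusted p = 0.000490).

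Sesn2, which encodes the leucine sensor sestrin 2, an inhibitor of the growth kinase complex mTORC1, had the smallest adjusted p of the 10 genes. Sesn2 (MGP_BALBcJ_G0028854, chromosome 4, 129671926 to 129690816) was at 90.1, 75.0 and 77.6 CPM in I/R and at 22.7, 23.8 and 20.2 CPM in sham. It rose by a log2 fold change of 1.86 ± 0.11 (edgeR adjusted p = 0.000169). Gm12981, which overlaps Sesn2 on the same strand, had at most 18 reads in a library. Mdm2 (MGP_BALBcJ_G0017700, chromosome 10, 116306890 to 116332248), the feedback inhibitor of p53, was at 112, 91.8 and 85.3 CPM in I/R and at 49.8, 47.2 and 54.6 CPM in sham. It rose by a log2 fold change of 0.93 ± 0.12 (edgeR adjusted p = 0.00111). Its fold change was under 2 here but over 2 with scaling by library size alone (log2 fold change 1.19) and on the deposited FPKM (1.15 and 1.18 with pseudocounts of 1 and 0.1).

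The spread within the I/R group differed between the genes. Cdkn1a, Gadd45a and Phlda3 had coefficients of variation of 30.9%, 36.1% and 26.7% in I/R, against 12.4%, 6.70% and 11.2% in sham. In these 3 genes I/R library 1 was 1.65-fold, 1.79-fold and 1.54-fold the mean of the other two I/R libraries. The same ratio was 1.07 for Bbc3 and 1.06 for Ccng1, and it was below 1 for Trp53inp1 (0.935) and Pmaip1 (0.856). Library 1 was the highest I/R library for 7 of the 10 genes. Over all genes tested the median of this ratio was 0.998, and over the genes called higher in I/R it was 1.25.

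**Figure D3:**
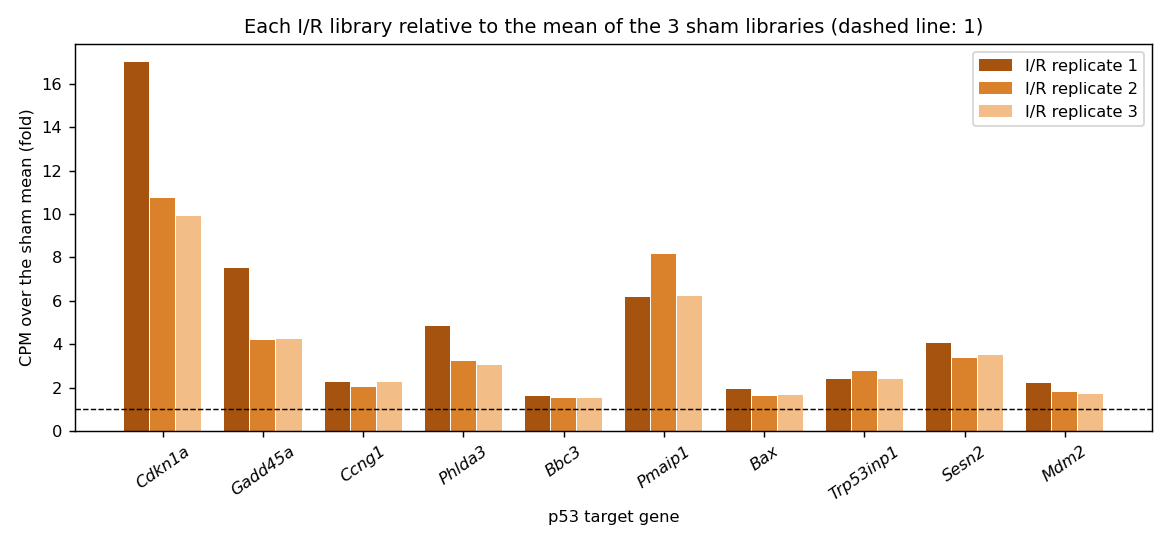
Fold of each I/R library over the mean of the 3 sham libraries for the 10 genes, with bars from 0 and a dashed line at 1. I/R library 1 stands above the other two in Cdkn1a (17.0 against 10.7 and 9.92), Gadd45a and Phlda3, while Pmaip1 and Trp53inp1 are highest in library 2.

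The summed markers of neurons, monocytes and macrophages, endothelium and neutrophils differed between the groups, and I/R library 1 stood apart in them. The summed level of 9 neuronal markers was 2158, 3753 and 4111 CPM in I/R libraries 1, 2 and 3, against 7129 to 7460 CPM in sham, and 8 of the 9 were called lower. Among all genes tested, 19.9% were called lower and 21.8% higher. The summed level of 6 monocyte and macrophage markers was 308, 153 and 143 CPM in I/R, against 21.9 to 23.9 CPM in sham, with 6 of 6 called higher. Of these 6, Cd14 and Cd68 had the highest I/R means, 111 and 52.6 CPM, against 3.16 and 7.66 CPM in sham. Ccr2 had the lowest, 1.52 CPM in I/R against 0.152 CPM in sham. The paper names CD68 among the markers of pro-inflammatory microglia, so the sum of these 6 is not specific to monocytes and macrophages. For 5 endothelial markers the summed level was 375, 262.5 and 210 CPM against 111 to 116 CPM, also with all 5 called higher. For the 5 neutrophil markers it was 30.2, 7.95 and 6.23 CPM against 0.407 to 1.61 CPM. Of these neutrophil markers 4 were tested and 3 were called higher. Ly6g, the defining one, was not tested and had 1, 0 and 0 reads in I/R and 0 in sham. Of 6 microglial markers 3 were higher and 2 lower, with sums of 232 to 323 CPM in I/R and 219 to 249 CPM in sham. Of 6 astrocytic markers 2 were higher and 3 lower. Their sums ranged from 4282 to 4557 CPM after I/R, against 4310 to 4659 CPM for the sham libraries. These similar sums hid large opposite changes. The mean of Gfap went up from 403 (sham) to 1998 CPM (I/R), a log2 fold change of 2.31. Slc1a2 went down from a mean of 3082 (sham) to 1588 CPM (I/R), a log2 fold change of -0.96. Of 6 oligodendrocyte markers 0 were higher and 2 lower, with sums of 5904 to 6914 CPM in I/R and 7094 to 8701 CPM in sham, and of 2 markers of their precursors 1 was lower. The summed choroid plexus markers ranged from 32.1 to 4316 CPM over all libraries without regard to group, and with Ttr as a covariate all 10 p53 targets were still called. In bulk tissue, fewer cells of a type and less RNA per cell cannot be told apart, and the part that cell composition had in the levels of the 10 genes was not tested.

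Levels can be compared between genes only per length, for which the deposited FPKM were used. In sham, Bax (53.96 ± 2.50 FPKM, SD, n = 3) was the highest of the 10 genes, followed by Ccng1 (36.8 ± 1.68), Mdm2 (27.6 ± 2.19), Phlda3 (21.8 ± 2.32), Cdkn1a (18.7 ± 2.46), Bbc3 (12.9 ± 0.503), Sesn2 (5.85 ± 0.457), Trp53inp1 (5.03 ± 0.753), Gadd45a (3.37 ± 0.249) and Pmaip1 (0.537 ± 0.101). The neighbours Phlda3 and Cdkn1a, and Sesn2 and Trp53inp1, overlapped between libraries. In I/R, Cdkn1a was first with 283 ± 102 FPKM, against the fifth place in sham. It was followed by Bax (112 ± 17.6), Phlda3 (96.8 ± 30.8), Ccng1 (96.3 ± 9.23), Mdm2 (63.0 ± 12.1), Sesn2 (25.5 ± 3.76), Bbc3 (23.9 ± 2.03), Gadd45a (21.6 ± 8.89), Trp53inp1 (15.1 ± 1.13) and Pmaip1 (4.38 ± 0.647). Bax, Phlda3 and Ccng1 overlapped as neighbours in that order, as did Sesn2, Bbc3 and Gadd45a. With the gene lengths given in the table instead of those implied by the FPKM, only Mdm2 and Phlda3 changed places in sham, and the order in I/R was the same.

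**Figure D4:**
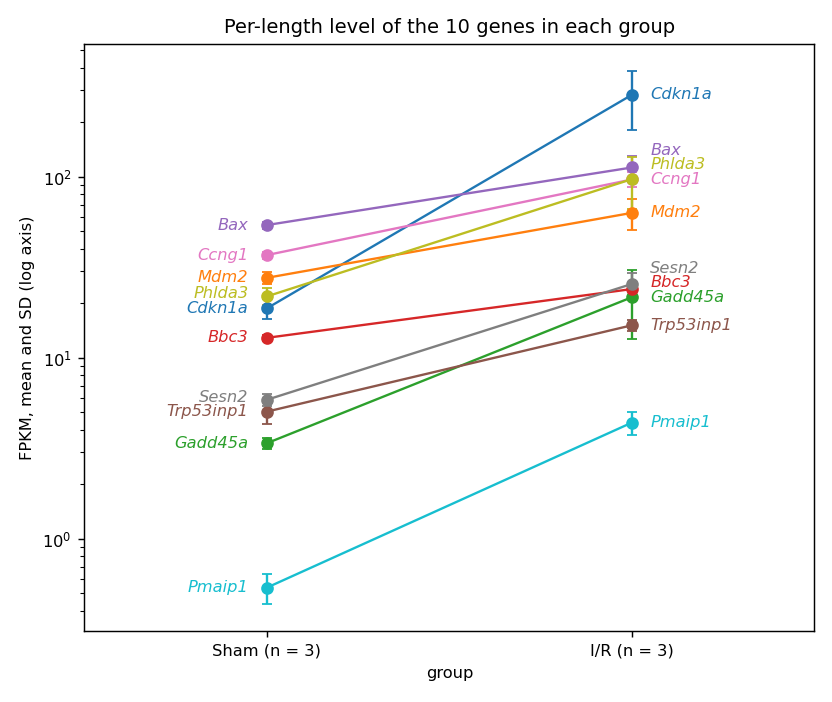
Mean deposited FPKM of the 10 genes in sham and in I/R on a log axis, with 1 line per gene and SD bars over 3 libraries. Cdkn1a goes from the fifth place in sham (18.7 FPKM) to the first in I/R (283 FPKM), and Pmaip1 is the lowest in both groups.

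The regulators of p53 held genes called in both directions. Of 21 genes that control p53, 20 were found and 19 tested, of which 7 were higher, 4 lower and 8 not called, with a median log2 fold change of 0.04. The called share was 57.9%, against 41.8% of all genes tested. With scaling by library size alone 9 were higher and 2 lower. Trp53 itself had 2115, 1595 and 1579 reads in I/R and 911, 1047 and 786 in sham. It rose by a log2 fold change of 0.81 ± 0.10 (edgeR adjusted p = 0.00120). Ppp1r13l, whose product iASPP inhibits p53, rose by 1.10 ± 0.21 (edgeR adjusted p = 0.00518), and Chek1, a kinase of the DNA damage checkpoint, rose by 1.09 ± 0.27 (edgeR adjusted p = 0.0135), a call that was lost without sham library 3.

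Of the regulators that fell, Trp73, a p53 relative, had a log2 fold change of -0.95 ± 0.22 (edgeR adjusted p = 0.0112). Ppp1r13b, whose product ASPP1 steers p53 to apoptotic targets, had -0.72 ± 0.09 (edgeR adjusted p = 0.000971). Atm, the kinase that senses DNA double-strand breaks, had -0.37 ± 0.11 (edgeR adjusted p = 0.0289), and was not called with library size scaling alone, where it was at -0.12 (edgeR adjusted p = 0.406), and in 7 more of the 17 alternatives. Mdm4, the partner of MDM2, had 0.30 ± 0.10 (edgeR adjusted p = 0.0416), a call that was lost in 9 of 17 alternatives. Ppm1d, a phosphatase that switches the pathway off, was at 0.17 ± 0.11 and was not called (edgeR adjusted p = 0.273). It was called in 3 of 17 alternatives.

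Of 32 further p53 targets, all tested, 17 were higher, 2 lower and 13 not called, with a median log2 fold change of 0.50, and 21 were higher and 0 lower with scaling by library size alone. The called share was 59.4%, against 41.8% of all genes tested. Large changes were found in genes with few reads in sham. Gdf15, a stress cytokine, had 1279, 582 and 557 reads in I/R and 6, 8 and 10 in sham (log2 fold change 6.46 ± 0.41, edgeR adjusted p = 0.000212). Eda2r, a receptor of the TNF receptor family, had 892, 416 and 501 reads in I/R and 17, 7 and 16 in sham (5.32 ± 0.40, edgeR adjusted p = 0.000269). As in Cdkn1a, library 1 was the highest I/R library in both.

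The death receptor gene Fas rose by a log2 fold change of 2.16 ± 0.26 (edgeR adjusted p = 0.000977). Zmat3, an RNA-binding splicing regulator, had only 0.30 ± 0.08 (edgeR adjusted p = 0.0222), a call lost in 7 of 17 alternatives. The genes that fell were Rrm2b, a subunit of ribonucleotide reductase (-0.55 ± 0.16, edgeR adjusted p = 0.0275), and Ak1, adenylate kinase 1 (-0.51 ± 0.14, edgeR adjusted p = 0.0241), and both calls were lost in 5 of 17 alternatives. Sesn1 was at -0.34 ± 0.12 and was not called (edgeR adjusted p = 0.0507), though it was called in 5 of 17 alternatives.

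**Figure D5:**
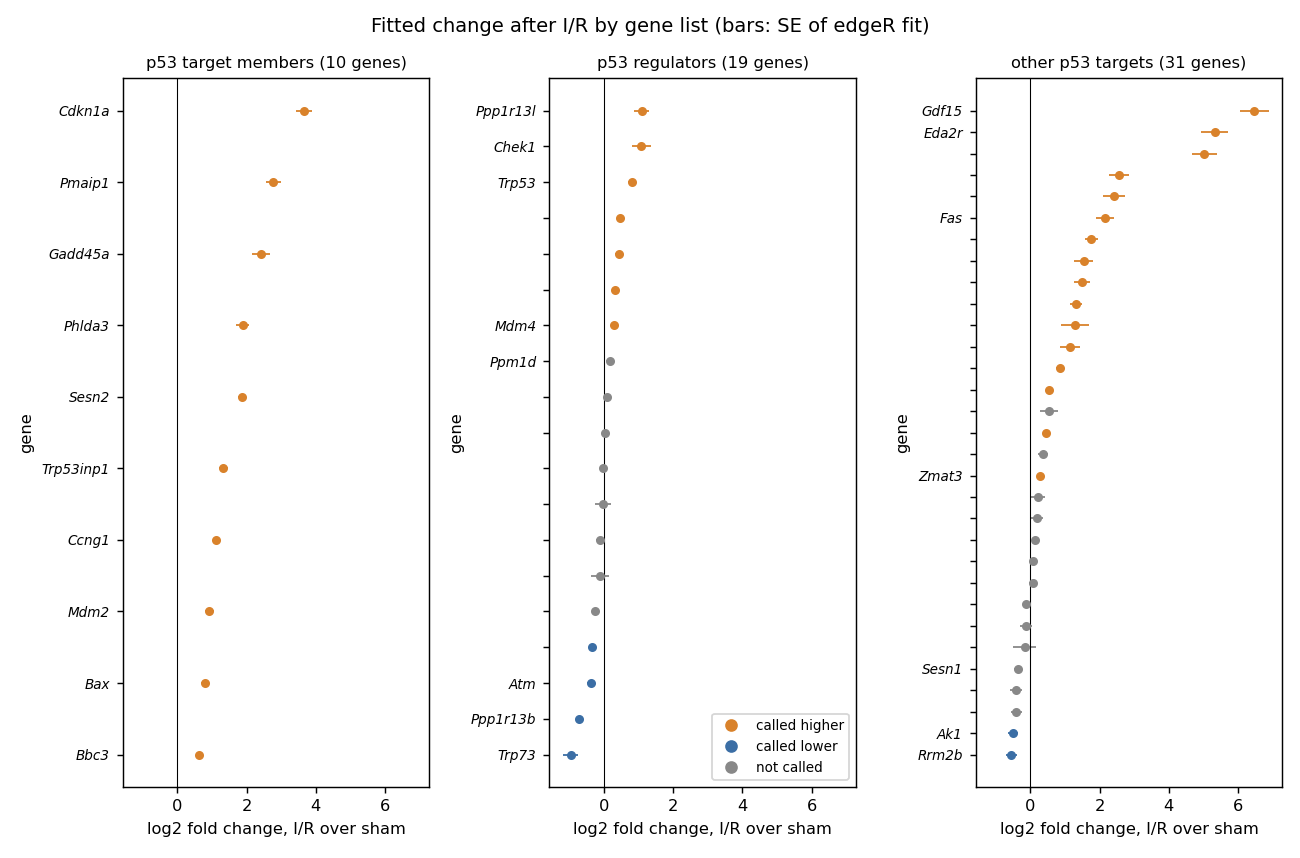
Log2 fold change of I/R against sham (points) with its SE (bars) for the tested genes of the 10 p53 targets, the regulators of p53 and the further p53 targets, except 1 further target that is not shown, with the genes described in the text named on the y axis. The 10 p53 targets all lie above 0, from Bbc3 (0.64) to Cdkn1a (3.65), while the regulators and the further targets lie on both sides of 0.

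The 10 genes have relatives in the same families, and these 11 paralogues split, with 4 higher, 2 lower and 5 not called and a median log2 fold change of 0.05. The called share was 54.5%, against 41.8% of all genes tested. With scaling by library size alone 4 were higher and 0 lower. All of the GADD45 genes rose. Gadd45b had 6191, 3812 and 3138 reads in I/R and 647, 672 and 535 in sham (log2 fold change 2.67 ± 0.20, edgeR adjusted p = 0.000257), and Gadd45g had 12754, 6495 and 5089 reads in I/R and 907, 997 and 979 in sham (2.90 ± 0.28, edgeR adjusted p = 0.000484). Gadd45a itself was at 2.41, so all 3 genes of the family had log2 fold changes over 2. Phlda1 rose by 1.16 ± 0.12 (edgeR adjusted p = 0.000590), while Phlda2, with 18, 8 and 12 reads in I/R and 0, 0 and 12 in sham, was not called (1.42 ± 1.15, edgeR adjusted p = 0.355).

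In the p21 family Cdkn1a stood alone among the called increases. Cdkn1b (p27) had a log2 fold change of -0.32 ± 0.10 (edgeR adjusted p = 0.0398, lost in 8 of 17 alternatives), and Cdkn1c (p57) was at -0.58 ± 0.41 and was not called (edgeR adjusted p = 0.289). Ccng2, the relative of Ccng1, fell by 0.53 ± 0.13 on the log2 scale (edgeR adjusted p = 0.0151). Its call was lost in 5 of 17 alternatives, among them library size scaling alone (edgeR adjusted p = 0.0830). Sesn3 was at 0.05 ± 0.16 (edgeR adjusted p = 0.819) and Trp53inp2 at 0.03 ± 0.10 (edgeR adjusted p = 0.839), and neither was called. Mdm4 and Sesn1, given above, are the paralogues of Mdm2 and Sesn2. The differences between paralogues were not tested.

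Bax, Bbc3 and Pmaip1 act on or with the other BCL-2 proteins. Of 15 further members of that family, 12 were found and 11 tested, of which 3 were higher, 3 lower and 5 not called, with a median log2 fold change of -0.08. The called share was 54.5%, against 41.8% of all genes tested, with 21.8% of all genes higher and 19.9% lower. Scaling by library size alone gave 5 higher and 1 lower. Mcl1, the anti-apoptotic partner of NOXA, rose by 1.37 ± 0.13 (edgeR adjusted p = 0.000439). Bak1, the pore-forming relative of Bax, rose by 0.88 ± 0.18 (edgeR adjusted p = 0.00608). The BH3-only gene Bcl2l11 (BIM) rose by 1.08 ± 0.28 (edgeR adjusted p = 0.0182), a call that was lost when any of the sham libraries was left out.

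Hrk, a BH3-only gene known from neurons, fell by 1.55 ± 0.25 on the log2 scale (edgeR adjusted p = 0.00242). The summed neuronal markers were lower in the same libraries, and a link with the level of Hrk was not tested. Bok was at -0.96 ± 0.33 (edgeR adjusted p = 0.0467, lost in 8 of 17 alternatives). Bcl2l2 was at -0.37 ± 0.08 (edgeR adjusted p = 0.00790), a call lost in 3 of 17 alternatives, among them library size scaling alone. The anti-apoptotic genes Bcl2 (-0.15 ± 0.15, edgeR adjusted p = 0.434) and Bcl2l1 (0.19 ± 0.09, edgeR adjusted p = 0.119) were not called. Bcl2l1 was called in 3 of 17 alternatives, among them library size scaling alone (0.45, edgeR adjusted p = 0.00731). The sign of Bcl2 turned in 3 of 17 alternatives, among them library size scaling alone (0.11).

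p21 acts on cyclins, cyclin-dependent kinases and PCNA. Of 18 such partners and proliferation genes, 6 were higher, 1 lower and 11 not called, with a median log2 fold change of 0.30, while scaling by library size alone gave 9 higher and 0 lower. The called share was 38.9%, below the 41.8% of all genes tested. Cdk6 (2.02 ± 0.43, edgeR adjusted p = 0.00739), Cdk2 (1.11 ± 0.21, edgeR adjusted p = 0.00477) and Pcna (0.71 ± 0.08, edgeR adjusted p = 0.000839) rose. Ccnd1 had 0.72 ± 0.22 (edgeR adjusted p = 0.0311), a call lost in 5 of 17 alternatives. The mitotic cyclin Ccnb1 had 14, 22 and 12 reads in I/R and 4, 3 and 4 in sham (1.96 ± 0.55, edgeR adjusted p = 0.0229, lost in 6 of 16 alternatives). Cdk1, with 37, 16 and 20 reads in I/R and 12, 5 and 1 in sham, was not called (1.86 ± 0.70, edgeR adjusted p = 0.0633) but was called in 6 of 16 alternatives. Ccnd2, a G1 cyclin, fell by 0.49 ± 0.08 on the log2 scale (edgeR adjusted p = 0.00274). Its call was lost in 3 of 17 alternatives, among them library size scaling alone.

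Sesn2, Bbc3, Pmaip1, Trp53inp1 and Gadd45a are also known as targets of the integrated stress response. The log2 fold changes of these genes ran from 0.64 (Bbc3) to 2.77 (Pmaip1). In that response the translation factor eIF2 is phosphorylated and ATF4 accumulates. The list of that response was chosen with earlier results of these data known, and all 10 of its genes were called higher. The called share was 100%, against 41.8% of all genes tested, with 21.8% of all genes higher. Their median log2 fold change was 1.67, beside 1.60 for the 10 p53 targets and 0.03 for all genes tested. Atf3 had 6928, 2542 and 2786 reads in I/R and 60, 32 and 34 in sham (log2 fold change 6.43 ± 0.45, edgeR adjusted p = 0.000216). Trib3, a pseudokinase, rose by 4.28 ± 0.44 (edgeR adjusted p = 0.000589), and Nupr1, a stress-induced chromatin protein, by 2.42 ± 0.21 (edgeR adjusted p = 0.000347). Ddit3 (CHOP) rose by 1.38 ± 0.13 (edgeR adjusted p = 0.000385) and Atf4 itself by 1.04 ± 0.10 (edgeR adjusted p = 0.000523). The part of either pathway in the levels of the genes they share was not tested.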

How the data were processed

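Bulk RNA-seq of hippocampus from 3 sham and 3 I/R libraries was used, grouped by the labels. Per the methods, the authors aligned reads with TopHat2 to an Ensembl genome and counted them per gene with HTSeq, and the deposited counts are raw. The identifiers were those of Ensembl's BALB/cJ annotation for 40303 of 41386 genes, although the mice were C57BL/6 (C57BL/6J per the methods). The submitters' processing notes also name Bowtie 0.12.2 and the build mm8, with no role. Strand use in counting is not given in the sources used here. The deposited FPKM were made by the authors from counts, the counted reads of the library and a gene length, without a composition factor. For most well-counted genes that length was shorter than the one in the table. The deposited FPKM of these genes were at a median of 1.60-fold those from the table's length. The authors' own comparison columns (fold changes, p-values and calls) were not used. The table had 4 split lines, which were rejoined. Genes without a name, 11253 in number, held 4.24% to 4.74% of the counts and stayed in library sizes and tests.

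The test was that of edgeR 4.0.16, run in R 4.3.3 (filterByExpr, TMM, robust glmQLFit, glmQLFTest, no covariates), and the code was tested on simulated data. P-values were adjusted by Benjamini-Hochberg over all genes tested. SE is the absolute log2 fold change divided by the square root of F. Libraries held 37493042 to 44788547 counted reads, and depth limits mainly genes with few reads, such as Phlda2 and Cdk1. Alternatives used DESeq2 1.42.0, limma 3.58.1, other scaling, filters, log2(FPKM + 1) and log2(FPKM + 0.1), a replicate block, a Ttr covariate, other calling rules and leaving out each library. Shared 50-base stretches were counted in GENCODE M21 transcripts. Promoter sequences are from RefSeq (GRCm38.p6) and were matched by symbol.

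The 10 genes and all gene lists were chosen with earlier results of these data known. Named are all 10 genes and all paralogues, in each other list the called genes with the 3 largest changes in each direction, and 20 genes chosen by name. 1 gene that this rule names is not reported here. Marker lists are given by counts and sums, and some of their genes are named.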

Additional observations from a re-analysis of the deposited data

How the results depend on the processing

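All 10 p53 targets were called higher in each of 18 alternatives, and 7 of them with a fold change over 2, where Mdm2 (log2 fold change 0.93), Bbc3 (0.64) and Bax (0.80) were not. The fold change of Mdm2 and Bax, though, was over 2 with library size scaling alone (1.19 and 1.06) and on both FPKM scales (1.15 and 1.18 for Mdm2, 1.03 and 1.04 for Bax), so that 9 of the 10 genes were over 2 there. Over the alternatives the log2 fold change ranged from 3.37 to 3.92 for Cdkn1a, from 0.60 to 0.90 for Bbc3 and from 1.80, on log2(FPKM + 1), to 3.03 for Pmaip1. Over all genes, calls numbered 7756, between 5330 and 9047 in the alternatives, and 2760 with a fold change over 2. The share of calls that were higher was 52.3%, against 75.8% with library size scaling alone and 75.0% and 75.5% on the FPKM, where the median log2 fold change over all genes moved to 0.28, 0.18 and 0.26.

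With a fold change over 2, calls fell from 11 to 2 for the regulators, from 6 to 3 for the paralogues, from 6 to 3 for the BCL-2 family and from 7 to 3 for the cell cycle partners. When each library was left out in turn, the regulators had 7 to 11 calls (7 without sham library 3) and the paralogues 3 to 6 (3 without sham library 1). The fewer samples and fewer degrees of freedom of these fits are part of their construction.

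Deviations of libraries with the same replicate number correlated at -0.10, 0.06 and -0.18, and those with different numbers at -0.17 to 0.27. The deviations within a group of 3 depend on each other, so these values cannot settle whether the numbers paired the libraries. With the numbers as a replicate block, the 10 p53 targets were all called, and the regulators had 8 calls, the paralogues 4 and all genes 6332. Replicates were pools and their number limits the precision. A p-value from 3 libraries a group says nothing of the spread between single animals, and 24 h was the only time after reperfusion.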
